A study of Mus musculus with 2 samples.

Results

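A total of 5268 EP300 peaks lay in gene deserts, out of 43296 peaks on chromosomes 1 to 19 and 43988 in the whole optimal set. A desert peak is one whose summit was over 100 kb from the nearest start of a protein-coding gene and outside every protein-coding gene body, in the GENCODE M21 basic annotation of mm10. Only distance and gene bodies chose these peaks, so their signal, clustering and sequence were not used to pick them. All values come from 2 chromatin immunoprecipitation libraries for EP300 from lung of B6NCrl mice at postnatal day 0. There was 1 group, with no treated or mutant animals, and the sex was not collected. Although the labels call them biological replicates 1 and 2, a single biosample record and donor record covers both, and their spread may be technical.

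EP300 is a histone acetyltransferase that transcription factors recruit to chromatin. It is found at active enhancers and promoters, and its binding has been used to locate enhancers in tissues. Enhancers can act over long stretches of DNA, and gene deserts often surround genes that control development, whose enhancers may lie far from the gene. The lung at birth holds epithelium, endothelium, mesenchyme and blood cells, and the peaks of whole tissue cannot be assigned to any of them.

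The central 200 bp of 7 desert peaks are given as examples from dense stretches and the strongest sites, and which of these bases were bound is not known. They are on the forward strand of GRCm38, from the RefSeq assembly. Capitals mark letters that match a short sequence called at desert peak centres, and only matches inside the central 100 bp are marked. The Lpp-Tprg peak (chr16:25059294-25059493) held a glucocorticoid response element (GRE) whose end overlaps an NFI sequence. The Akr1e1-Klf6 peak (chr13:5604275-5604474) held a TEAD sequence, and the Sucnr1-Mbnl1 peak (chr3:60267542-60267741) a FOX sequence. The strongest peak of the Tgfbr2-Rbms3 stretch (chr9:116353237-116353436) held a CEBP sequence. The strongest peak of the Klf14-Mkln1 stretch (chr6:31078503-31078702) held an ETS-ERG sequence, and that of the Ly86-Rreb1 stretch (chr13:37492065-37492264) a GATA sequence. The Irf2bp2-Tomm20 peak (chr8:126736612-126736811) held none of them, which says only that these letters are not in its central 100 bp.
Lpp-Tprg: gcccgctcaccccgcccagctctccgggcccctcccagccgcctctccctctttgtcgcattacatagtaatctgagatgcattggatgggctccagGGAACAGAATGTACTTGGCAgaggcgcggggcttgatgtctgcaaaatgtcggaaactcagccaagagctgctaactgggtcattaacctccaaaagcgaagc
Akr1e1-Klf6: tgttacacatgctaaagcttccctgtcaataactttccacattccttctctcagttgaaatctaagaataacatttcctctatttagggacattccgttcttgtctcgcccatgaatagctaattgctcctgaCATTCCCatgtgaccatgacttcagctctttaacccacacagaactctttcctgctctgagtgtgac
Sucnr1-Mbnl1: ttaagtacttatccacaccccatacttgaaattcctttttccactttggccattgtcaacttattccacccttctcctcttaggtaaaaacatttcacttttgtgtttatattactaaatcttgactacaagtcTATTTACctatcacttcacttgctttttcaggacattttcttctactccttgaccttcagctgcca
Tgfbr2-Rbms3: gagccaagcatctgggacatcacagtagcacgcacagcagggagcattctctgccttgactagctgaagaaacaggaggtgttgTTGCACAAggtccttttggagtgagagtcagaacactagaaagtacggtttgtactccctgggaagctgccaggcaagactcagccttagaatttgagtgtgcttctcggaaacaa
Klf14-Mkln1: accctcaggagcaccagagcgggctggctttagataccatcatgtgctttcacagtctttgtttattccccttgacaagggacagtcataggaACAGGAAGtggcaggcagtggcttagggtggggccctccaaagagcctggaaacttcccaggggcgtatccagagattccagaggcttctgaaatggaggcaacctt
Ly86-Rreb1: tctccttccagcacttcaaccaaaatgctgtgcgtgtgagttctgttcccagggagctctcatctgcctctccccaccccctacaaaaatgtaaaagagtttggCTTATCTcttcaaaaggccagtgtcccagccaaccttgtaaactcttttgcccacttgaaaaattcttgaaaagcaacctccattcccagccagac
Irf2bp2-Tomm20: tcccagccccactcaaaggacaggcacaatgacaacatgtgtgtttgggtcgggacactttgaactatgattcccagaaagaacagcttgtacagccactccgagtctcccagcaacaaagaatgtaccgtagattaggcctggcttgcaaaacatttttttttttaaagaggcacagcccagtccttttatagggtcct

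Desert peaks were 12.2% of autosomal peaks. The share was 12% among the strongest peaks of library 1 alone, 12.3% in library 2 alone and 12.2% in the authors' conservative set. Deserts make up 31.2% of autosomal sequence, 746 Mb of 2396 Mb, not counting bases written as N. Desert peaks therefore stood at 7.06 per Mb, against 18.8 per Mb in intergenic sequence 10 to 100 kb from a start and 11.9 per Mb inside genes beyond 100 kb. The desert density was 6.97 per Mb in library 1 and 7.16 per Mb in library 2 (mean 7.06 ± 0.133, SD, n = 2). The intergenic density was 18.7 per Mb in both libraries. The ratio of desert to intergenic density was 0.376 in the optimal set, 0.373 in library 1 and 0.382 in library 2, so the gap between the classes was far wider than that between the libraries. Counted per Mb of sequence not masked as repeats, the densities were 11.5 in deserts and 30.3 in intergenic sequence.

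**Figure D1:**
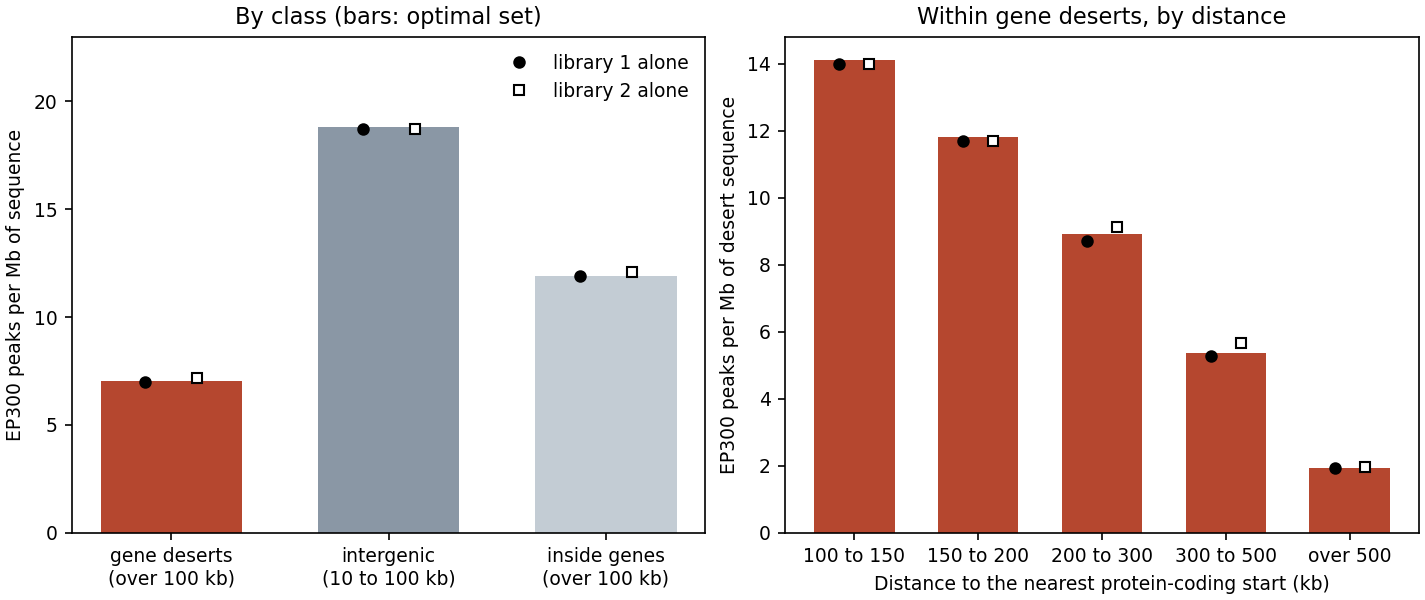
EP300 peaks per Mb (vertical axes) by class (left) and, within gene deserts, by distance to the nearest protein-coding start in kb (right); bars are the optimal set, filled circles library 1 and open squares library 2. Deserts stand at 7.06 peaks per Mb, and within them the density falls at each step from 14.1 to 1.93 per Mb.

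Density fell with distance inside the deserts. It was 14.1 peaks per Mb at 100 to 150 kb, 11.8 at 150 to 200 kb, 8.92 at 200 to 300 kb, 5.38 at 300 to 500 kb and 1.93 beyond 500 kb. In library 1 the first and last of these bins held 14.0 and 1.93 peaks per Mb, and in library 2 they held 14.0 and 1.96. The bin beyond 500 kb holds 243 Mb of sequence and only 467 peaks, while the first 120.1 Mb hold 1693. The median desert peak was 194 kb from a start (quartiles 136 and 304 kb). Signal differed little with distance. The median signal value was 50.5 in the nearest bin and 47.0 in the farthest. The signal value is the authors' own height measure for a peak, whose scaling is not stated, and it is used only to rank peaks within a list.

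At the 100 kb limit, the nearest peak inside was 100032 bp from the start of Ercc6l2 with a signal value of 78.7. The nearest outside was 99977 bp from the start of Zfp236 with 199.8. The 225 desert peaks within 5 kb of the limit had a median signal of 55.0, and the 226 peaks within 5 kb on the other side had 52.5. Across chromosomes the density ran between 5.11 per Mb on chromosome 12 and 11.3 on chromosome 13, and chromosome 10 followed at 10.4. Chromosome 12 is also the one with the largest part in deserts, 43.7%.

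Signal did not separate desert peaks from intergenic peaks nearer to genes at the threshold of the test. Their median signal value was 49.8 (quartiles 35.4 and 78.1, range 9.91 to 522), against 50.8 for intergenic peaks. At or above the autosomal median signal were 51.6% of desert peaks and 52.9% of intergenic peaks, which did not pass the test (adjusted p = 0.167, two-sided Fisher's exact test with Benjamini-Hochberg adjustment over 9 features). Within 100 bp of a summit among the strongest peaks of both libraries lay 66.6% of desert and 65.5% of intergenic summits (adjusted p = 0.209, the same exact test). For a library alone, the partner summit was sought in the other library only. In library 1 alone both differences passed, with 50.5% of desert and 52.7% of intergenic peaks for signal and 70.0 and 68.3% for the partner summit. The partner difference also passed in the conservative set (1.79 points) and with the limit at 50 kb (1.82 points). Where the limit is moved to 50 or 200 kb, here and below, intergenic peaks run from 10 kb to that limit. In library 2 alone neither difference passed, with 51.8 and 52.7% for signal and 68.2% of each class for the partner summit. A conservative peak overlapped 86.0% of each. The difference in that share was 0.0122 percentage points. Among the 500 strongest autosomal peaks, 55 were desert peaks, or 11%. Nearly all desert peaks, 96.8%, had the same width of 424 bp, as did 96.9% of autosomal peaks, so width carries little information. In all 5101 desert peaks of this width the deposited summit is the midpoint, so how closely it marks the bound bases is not known, and every sequence result is read around it.

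Desert and intergenic peaks differed in spacing and base composition. Another peak lay within just over 12 kb of 61.3% of desert peaks and 73.5% of intergenic peaks (adjusted p = 4.06e-52, Fisher's exact test). The density of peaks in each class, given above, bears on this share, so it is no separate measure of clustering. Fewer desert peaks reached the autosomal median GC content: 34.6% of desert peaks, against 49.6% of intergenic peaks (adjusted p = 1.19e-68, Fisher's exact test). At least 1 CpG stood in the central 100 bp of 63.9% of desert and 69.9% of intergenic peaks (adjusted p = 2.15e-13, Fisher's exact test). Peaks are not replicates, so these p-values measure counting error alone. They also take each peak as separate, although some desert peaks overlap another. In library 1 the GC shares were 32.7% of desert and 48.7% of intergenic peaks, and in library 2 they were 34.7 and 51.8%. Set against peaks inside genes beyond 100 kb, GC content did not separate the classes, with 34.6% of desert peaks and 35.0% of gene-body peaks at or above the median (adjusted p = 0.784, Fisher's exact test). Neither did spacing, as 63.6% of gene-body peaks had another peak that near (adjusted p = 0.0978, Fisher's exact test). A CpG stood in 63.5% of gene-body peaks, which did not pass either (adjusted p = 0.784, Fisher's exact test). GC content also fell with distance inside the deserts, with a median of 45.5% at 100 to 150 kb and 41.5% beyond 500 kb.

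Long noncoding RNA genes overlapped many desert peaks. The summit was inside such a gene for 1038 desert peaks, 19.7%, against 16.1% of intergenic peaks (adjusted p = 6.02e-08, Fisher's exact test). The test counts each peak as separate, although several can share a gene, as the counts below show. Such genes take up 10.4% of desert sequence and 11.1% of intergenic sequence. Desert peaks stood at 13.4 per Mb inside them and 6.33 per Mb outside them, and intergenic peaks at 27.1 per Mb inside and 17.7 per Mb outside. Summits within 1 kb of a long noncoding RNA start were rare, 3.34% of desert peaks against 4.16% of intergenic peaks (adjusted p = 0.0227, Fisher's exact test). That call was lost with the limit at 50 kb and in the stronger 50% of peaks. With the limit at 200 kb the difference from intergenic peaks in summits inside such genes was 0.183 points and did not pass. The noncoding genes with most desert peaks, named after their counts were seen, were 2610307P16Rik between Gm11361 and Sox4 with 20, Lncpint between Klf14 and Mkln1 with 17, and 1600002D24Rik between Ets2 and Psmg1 with 14. Gm20755 between Gm5148 and Ankrd50 also held 14. Gm35330, beside Klf6, held 12 peaks with a median signal of 115.

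Desert peaks were spread unevenly over gaps. Of 1788 gaps between protein-coding genes that hold desert sequence, 965 held at least 1 desert peak and 823 held none. The 152 gaps with at least 10 held 51.2% of desert peaks in 15.2% of desert sequence, and the 44 gaps with at least 20 held 22.8% in 5.13%. These gaps were picked by their counts, so the figures describe how uneven the peaks are and test nothing. The median distance to the nearest other desert peak was 6.71 kb. Of the 5268 peaks, 930 overlapped another desert peak, and merging overlaps left 4796 loci.

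The densest stretch was between Ly86 and Rreb1 on chromosome 13 (first to last summit chr13:37447077-37546732). Ly86 encodes a cofactor of an immune cell surface receptor, and Rreb1 a zinc finger transcription factor that acts downstream of Ras. It held 31 desert peaks in 99.7 kb, with 29 in each library alone, and 26 loci after overlaps were merged. Signal values ran between 11 and 157, with a median of 55.5, and the strongest peak had 85.4 in library 1 and 71.1 in library 2. The stretch began 28.0 kb from the Ly86 gene body, with Rreb1 232 kb beyond its last summit. The whole gap held 39 desert peaks, 139 per Mb of its desert sequence.

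Between Klf14, an imprinted Krüppel-like factor, and Mkln1, which encodes a kelch protein, 24 desert peaks stood in 96.9 kb (chr6:31062074-31158934), 21 in library 1 and 17 in library 2. Of these 24 summits, 15 lay inside Lncpint, a long noncoding RNA gene induced by p53, and the strongest lay outside it. Another 24 stood between Rad51b, a gene of homologous recombination, and Zfp36l1, which encodes a protein that destabilises messenger RNAs (chr12:79838366-79934344), with 20 in library 1 and 23 in library 2. Their nearest start was that of Zfp36l1, 179 to 275 kb away, and the gap had 161 desert peaks per Mb, above the 139 per Mb of the Ly86 gap. A pair of separate stretches lay between Serp2 and Lacc1 on chromosome 14, with 20 peaks (chr14:76658395-76757832) and 16 peaks (chr14:76804661-76903385). Lacc1 encodes a macrophage enzyme.

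Beside Tgfbr2, the type II receptor of TGF-beta, 16 peaks ran 103 to 201 kb from the start (chr9:116277974-116376126), 16 in each library. The strongest had a signal value of 340.5, with 201 in library 1 and 134 in library 2. Its neighbour on the far side is Rbms3, an RNA-binding protein gene. Tnfaip3, an inhibitor of NF-kappaB signalling, and Olig3, a neural transcription factor gene, bounded 16 peaks (chr10:19122428-19217208), with 12 in library 1 and 10 in library 2. That 10 was the lowest count in either library among the 10 densest stretches. The remaining stretches held 15 each: Irf2bp2 to Tomm20 (chr8:126736066-126833990), Gm5148 to Ankrd50 (chr3:37919896-38016208) and Foxo1 to Cog6 (chr3:52548706-52644574). The Irf2bp2 stretch had the highest median signal of the 10, at 89.9, and the second Serp2 stretch had the lowest maximum, at 87.9. Irf2bp2 encodes a transcriptional corepressor and Tomm20 a mitochondrial import receptor. Foxo1 encodes a forkhead factor held in check by insulin signalling.

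**Figure D2:**
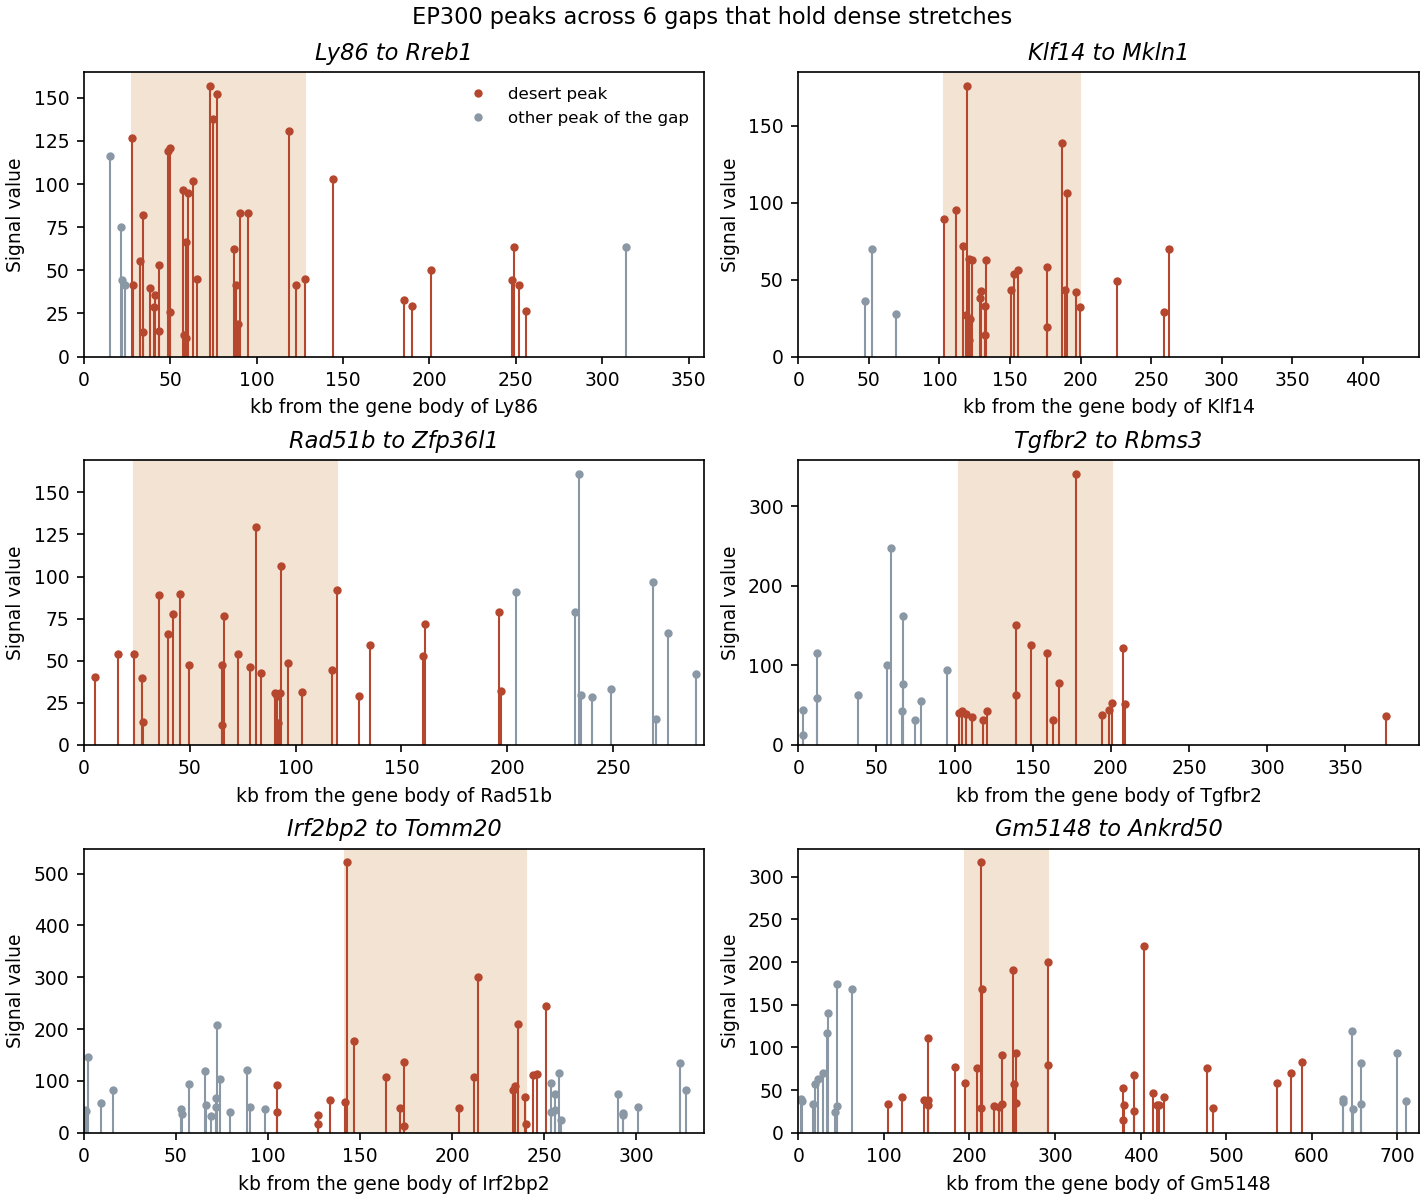
Signal value of every optimal EP300 peak (vertical axes) against kb from the left gene body (horizontal axes) in 6 gaps, with desert peaks in red, other peaks of the gap in grey and the dense stretch shaded. The Ly86 to Rreb1 stretch holds 31 desert peaks with none above 157, and the Irf2bp2 to Tomm20 stretch holds 15 with 1 at 522.

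The gap with most desert peaks was that between Zeb2, a zinc finger factor of mesenchymal and endothelial cells, and Acvr2a, an activin receptor. It held 51 in 3.50 Mb of desert sequence (14.6 per Mb), with 54 in library 1 and 46 in library 2. The gap between Klf4, a Krüppel-like factor, and Actl7b, an actin-like gene of testis, held 45 in 1.01 Mb (44.7 per Mb), with 40 in library 1 and 44 in library 2. The Ly86 gap followed with 39, and the Zfp608 to Gramd3 gap on chromosome 18 had 39 in 1.21 Mb. The Serp2 gap held 38. The 10 gaps with most desert sequence, a group added after the counts were seen, held 0 to 15 desert peaks each. Of these, 9 held at most 6, at 0 to 1.39 per Mb, against 7.06 per Mb in all deserts. Desert sequence beyond 500 kb from a start, of which such wide gaps hold much, stood at 1.93 per Mb. No density at matched distances was computed for these gaps. Tenm3 to Aga, the one with most sequence, held 2 peaks in 4.57 Mb, and Pcdh20 to Pcdh9 held 2 in 4.44 Mb. Cntnap5b to Cdh20 and Pcdh7 to G6pd2 held 0. Sel1l to Flrt2 stood apart with 15 in 3.64 Mb, or 4.12 per Mb. Tenm3, Pcdh20, Pcdh9, Cntnap5b and Cdh20 encode cell surface adhesion proteins, many of them known from neurons.

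The strongest desert peak, 143 kb from the Irf2bp2 start (chr8:126736532-126736884), had a signal value of 522 and ranked 6 among all autosomal peaks. Its value was 254 in library 1, where it ranked 14, and 273 in library 2, where it ranked 3. The next was 257 kb from Klf6, a Krüppel-like factor, inside the noncoding gene Gm35330 (chr13:5604218-5604505), with a signal value of 476, 253 in library 1 and 223 in library 2. The third, with 440.3, stood between Sucnr1, the succinate receptor gene, and Mbnl1, a splicing regulator. A peak 593 kb from Zfp608 had 432 and held a STAT sequence.

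A pair of peaks shared a value of 422. The first was 66.8 kb beyond the Lpp gene body and 227 kb from Tprg, and held the GRE printed above (217 in library 1, 203 in library 2). Lpp encodes a LIM protein of focal adhesions. The other lay 293 kb from Nrg1, which encodes a growth factor for ErbB receptors, with Fut10 on the other side, and held an AP-1 sequence. Between Cd83, a surface marker of activated immune cells, and Jarid2, a subunit of a Polycomb complex, a peak had 418 with TEAD and NKX2 sequences. The peak 111 kb from Cdkn2b, a cyclin-dependent kinase inhibitor gene, had 413 and lay in the noncoding gene Gm12610. The last of the 10 strongest were between Ankfn1 and Pctp, at 369.8 with a FOX sequence, and between Pcdh17 and Diaph3, at 366. All 10 were within the strongest 126 of each library list.

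The farthest desert peak was 2416 kb from its nearest start, between Pcdh20 and Pcdh9 (chr14:90886807-90887230). Its signal value was 43.4, with 24.9 in library 1 and 16.2 in library 2. The second was 2129.8 kb from Pcdh17 with 62.3, and the third was 1827 kb from Acvr2a with 63.0, in the Zeb2 gap. None of these was strong: they ranked 25210, 15028 and 14773 among autosomal peaks.

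Grouped by the genes at the ends of their gaps, desert peaks lay more densely beside lung regulators than beside neuronal genes. Of 76 listed lung transcription factors, 48 stood at the end of a desert, and those deserts held 563 desert peaks, 10.7% of the total in 5.03% of desert sequence, or 15 per Mb. Of 86 signalling genes, 49 did, with 327 peaks, 6.21% in 2.13% of the sequence, or 20.6 per Mb. Endothelial genes had 129 at 15.4 per Mb, and mesenchyme and matrix genes 96 at 19.6 per Mb. Glucocorticoid-responsive genes had 40 at 65.7 per Mb, but in only 0.609 Mb. Neuronal genes bounded 37.0 Mb, close to the 37.5 Mb of the lung transcription factors, and those deserts held 58 peaks, or 1.57 per Mb. The libraries alone gave 14.4 and 15.1 per Mb for the lung factors and 1.57 and 1.51 per Mb for the neuronal genes. A gene can stand in more than 1 list and the lists were chosen with results of these data known, so they are described by counts only.

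Because density falls with distance and listed deserts differ in size, each list was also set beside the number of peaks that its sequence would hold at the density of all deserts in the same distance bins. The lung factors had 563 peaks, against 286 at that density (1.97 times). The factor was 2.03 for signalling, 2.02 for endothelial and 1.98 for mesenchyme and matrix genes. It was 4.80 for glucocorticoid-responsive genes, 40 peaks against 8.33, and 0.863 for alveolar type 1 genes, 15 against 17.4. Neuronal deserts held 58 against 173, or 0.336 times. Alveolar type 2 genes bounded only 1 desert, beside Slc34a2, of 0.0153 Mb and with 0 peaks, where 0.216 would stand at the common density, so that list says nothing here.

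**Figure D3:**
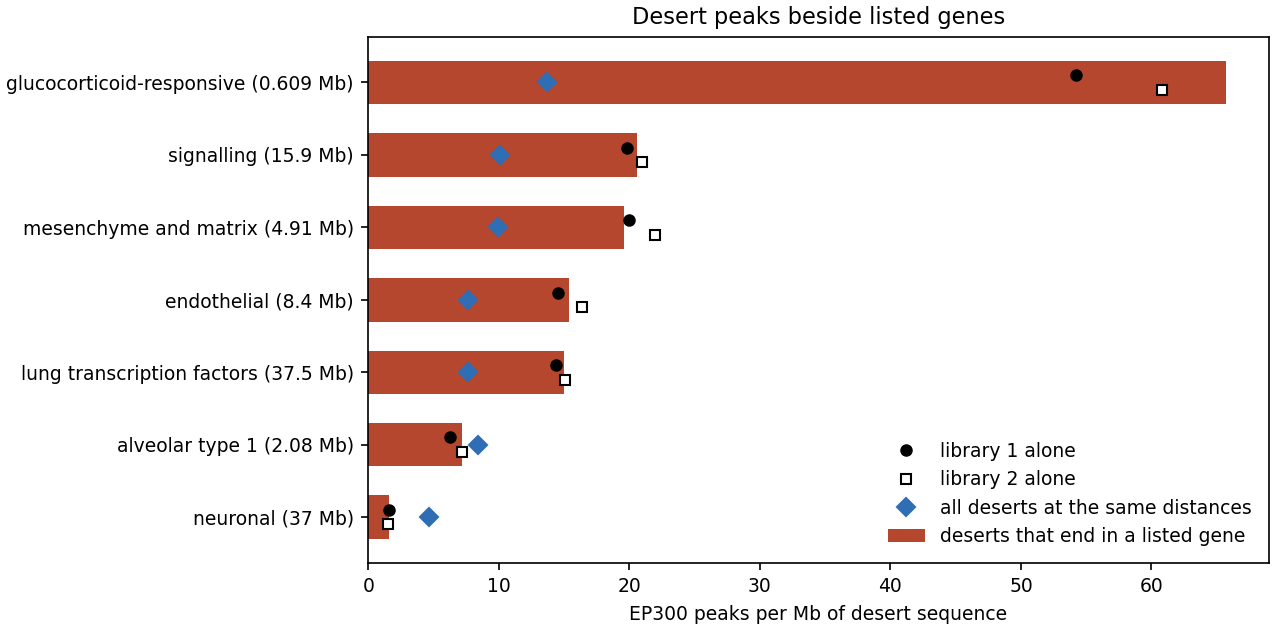
Desert peaks per Mb of desert sequence (horizontal axis) for deserts that end in a listed gene, with the Mb of each list in brackets; bars are the optimal set, filled circles library 1, open squares library 2 and diamonds the density of all deserts at the same distances. Neuronal deserts stand at 1.57 per Mb and those beside lung transcription factors at 15, with nearly equal amounts of sequence.

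Within the lists, the genes with most desert peaks in their adjoining gaps are given as examples, picked by those counts. Among lung factors they were Zeb2 with 51, Klf4 with 45, Meis1 with 34, Klf6 with 32 and Sox9 with 30. Sox9 marks distal lung progenitors, and Meis1 is a homeodomain factor. Among signalling genes, Fgfr2, the epithelial FGF receptor, and Hes1, a Notch target, had 20 each, Tgfbr2 19, the MAP kinase phosphatase gene Dusp6 18, the FGF feedback inhibitor Spry2 18 and the hedgehog-binding protein gene Hhip 17. Endothelial examples were Tbx3 with 29, Ets1 with 25, Nr2f2 with 21 and Cdh5, encoding VE-cadherin, with 18. Bcl6, a transcriptional repressor, had 10, and the CEBP gene Cebpb had 9 in 0.0434 Mb, or 207 per Mb. Dcn, encoding the matrix proteoglycan decorin, had 17. The neuronal gene with most was Gria1, a glutamate receptor subunit, with 11 in 0.859 Mb (12.8 per Mb).

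Short sequences bound by known factors were searched on both strands in the central 100 bp of each peak and in the flanking 100 bp, 300 to 700 bp away, of nearest GC content. Matches of different sequences may overlap. The tests take each peak as separate, although peaks are not replicates and 930 desert peaks overlap another. Flanks were not kept clear of neighbouring peaks. The letters were TATTTAC or TGTTTAC for FOX, CAGCTG for the E-box, ACAGGAAA or ACAGGAAG for ETS-ERG, AGGAATG or GGGAATG for TEAD, TGACTCA or TGAGTCA for AP-1 and CTTGGCA for NFI. Of 39 sequences, 20 (51.3%) were called at the centres of desert peaks, meaning an adjusted p under 0.05 in an exact sign test and at least 1.5 times as many centres as flanks. Over all autosomal peaks, which include the desert peaks, 21 (53.8%) were, so the desert share is near the background. In both sets 2 (5.13%) were called in flanks: YY1 (AAGATGGC) and NFY (CCAATCA) in deserts, YY1 and PBX over all peaks. Of 8 alternatives, the YY1 call in deserts was lost in 5, both libraries alone among them, and the NFY call in 6. At centres, the HNF1 call (GTTAATNAT) was lost in all 8, with ratios of 1.75 in library 1 and 1.27 in library 2. The NF-kB call (GGGANTTCC) was lost in library 2 alone and in the conservative set, among others. KLF, CREB, MEF2, ETS and CTCF each lost the centre call in at least 1 alternative. All 20 sequences called at desert centres were also called over all autosomal peaks. At least 1 of them stood in 51.7% of desert centres, against 22.5% of flanks.

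FOX sequences, bound by forkhead factors of lung epithelium and other cells, were in 481 desert centres (9.13%), against 156 flanks (2.96%), a ratio of 3.08 (95% interval 2.57 to 3.72, adjusted p = 4.35e-40, exact sign test), and 3.07 over all autosomal peaks. The ratio was 2.70 in library 1 and 2.66 in library 2. The E-box CAGCTG, bound by basic helix-loop-helix factors, was in 462 centres against 235 flanks, 1.97 times (1.61 over all autosomal peaks). ETS-ERG sequences, bound by ETS factors of endothelium among others, were in 405 against 114, 3.55 times (3.61 over all). TEAD sequences, read by effectors of Hippo signalling, were in 397 against 205, 1.94 times (1.88 over all). AP-1 stood in 343 against 101, 3.40 times (3.26 over all), and NFI in 239 against 96, 2.49 times (2.01 over all). The difference between these ratios was not tested.

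The highest ratio that passed the test was that of the GRE, the site of the glucocorticoid receptor: 73 desert centres (1.39%), against 3 flanks (0.0569%). That is a ratio of 24.3 (95% interval 8.0 to 121, adjusted p = 1.26e-17, exact sign test), 38.0 in library 1 and 14.2 in library 2. With 3 flanks, the interval is wide, and it holds the ratio of 18.4 over all autosomal peaks. STAT (TTCCNGGAA) had a ratio of 5.72 (4.93 over all), with 103 centres and 18 flanks, and CEBP 4.58 (4.46 over all), with 183 and 40. CTCF had 13 centres and 2 flanks. NKX2 (CACTTGA), the core read by the lung factor Nkx2-1 among others, was in 191 centres against 84 flanks, 2.27 times (2.18 over all).

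**Figure D4:**
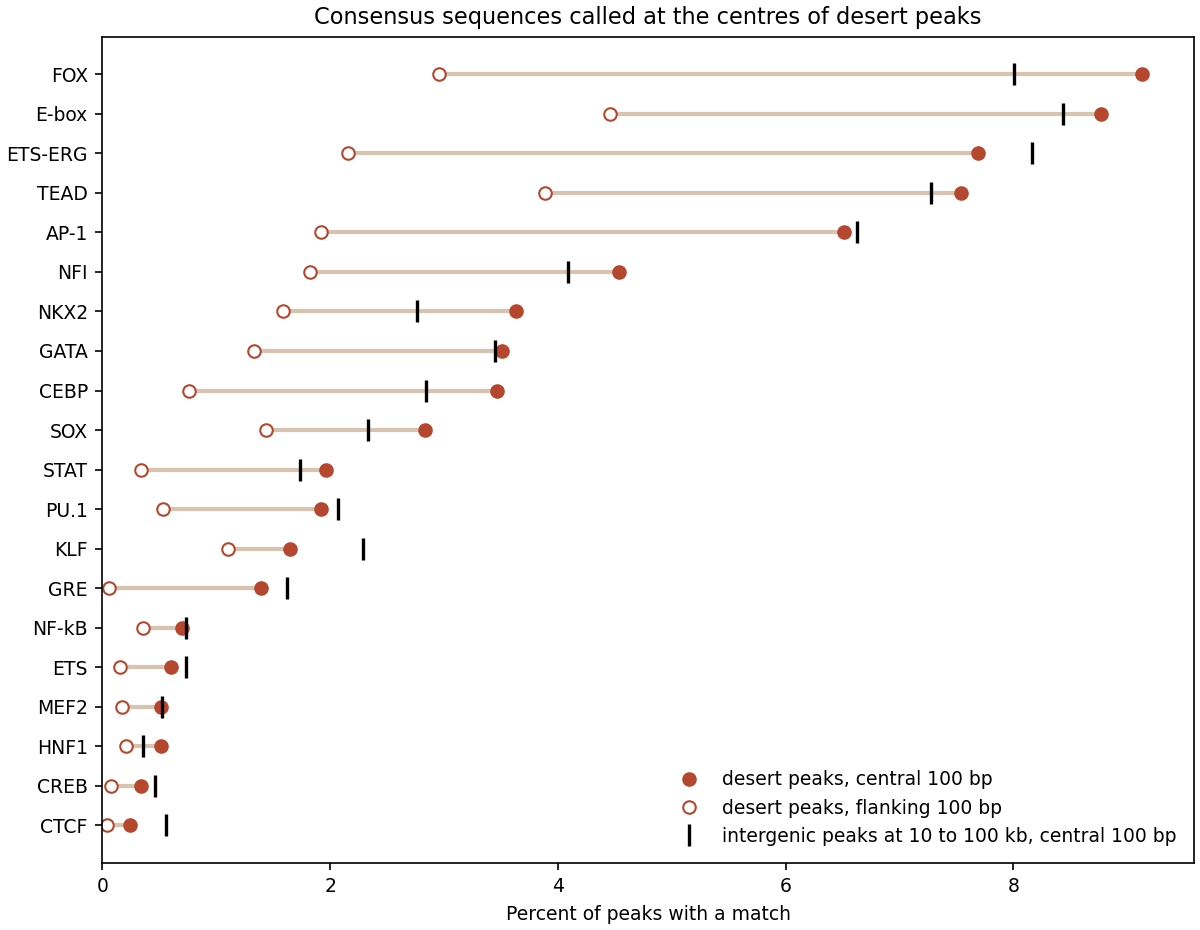
Percent of peaks with a match (horizontal axis) for the 20 sequences called at desert peak centres; filled circles are desert centres, open circles their flanks and black ticks the centres of intergenic peaks at 10 to 100 kb. The intergenic ticks lie near the desert centres for most sequences, such as TEAD at 7.54% of desert and 7.28% of intergenic centres.

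Few sequences differed between desert and intergenic centres. Of 39, 1 did (2.56% lower and 0% higher in deserts): SP (GGGGCGGGG), a GC-rich sequence, was in 0.190% of desert centres and 0.569% of intergenic centres (adjusted p = 0.0220, two-sided Fisher's exact test). That rests on 10 desert peaks, and in neither library alone did SP pass. In library 2 alone FOX did, with 9.47% of desert and 7.93% of intergenic centres (adjusted p = 0.0490, Fisher's exact test). Desert peaks also had a lower GC content, as given above, and its part in the SP difference was not tested. At an unadjusted p under 0.05, Fisher's exact test gave 5 sequences higher and 3 lower. NKX2 had the lowest of the p-values for a higher share, with 3.63% of desert and 2.76% of intergenic centres, a difference of 0.864 points (adjusted p = 0.0753, Fisher's exact test). FOX stood in 9.13% of desert and 8.01% of intergenic centres (adjusted p = 0.156, Fisher's exact test), and the GRE in 1.39 and 1.62% (adjusted p = 0.575, Fisher's exact test). Against peaks inside genes beyond 100 kb, 0 of 39 (0%) differed by the same test, with 1 at an unadjusted p under 0.05.

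By distance, FOX sequences were in 7.56% of desert centres at 100 to 150 kb, 9.04% at 150 to 200 kb, 10.9% at 200 to 300 kb, 8.59% at 300 to 500 kb and 11.6% beyond 500 kb, with no steady order. AP-1 was in 6.85, 7.72, 6.14, 5.50 and 5.35% in the same order. The GRE share was between 1.24 and 1.6% in every bin, from 7 to 21 peaks each. These bins differ in GC content, as given above, and its part in the shares was not tested.

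GRE matches stood mostly in strong desert peaks. Ordered by signal, 3.11% of the strongest 25% of desert peaks held one (41 of 1317, 95% Wilson interval 2.30 to 4.2%, for counting error only). The share was 0.759% in the second 25%, 1.14% in the third and 0.532% in the weakest. In intergenic peaks the shares were 3.63% in the strongest and 0.590% in the weakest 25%. Of the 100 strongest desert peaks, at signal values of 217 to 522, 10 held a GRE and 16 a FOX sequence. Of the 100 strongest intergenic peaks, at 281 to 529.8, 13 and 7 did. These cuts differ, as the intergenic class holds more peaks, and the 95% Wilson intervals for FOX overlap (10.1 to 24.4% and 3.43 to 13.7%). In the strongest 25%, FOX was in 11.7% of desert and 10.6% of intergenic peaks, and in the weakest 25% in 6.83 and 5.69%. ETS-ERG was in 10.3% of the strongest and 5.62% of the weakest 25% of desert peaks. The E-box did not rise with signal. From the strongest to the weakest 25% of desert peaks, it was in 7.67, 9.42, 8.81 and 9.19%. In intergenic peaks the E-box was in 7.51, 9.36, 9.06 and 7.84%, in the same order. No test was run on these groups.

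**Figure D5:**
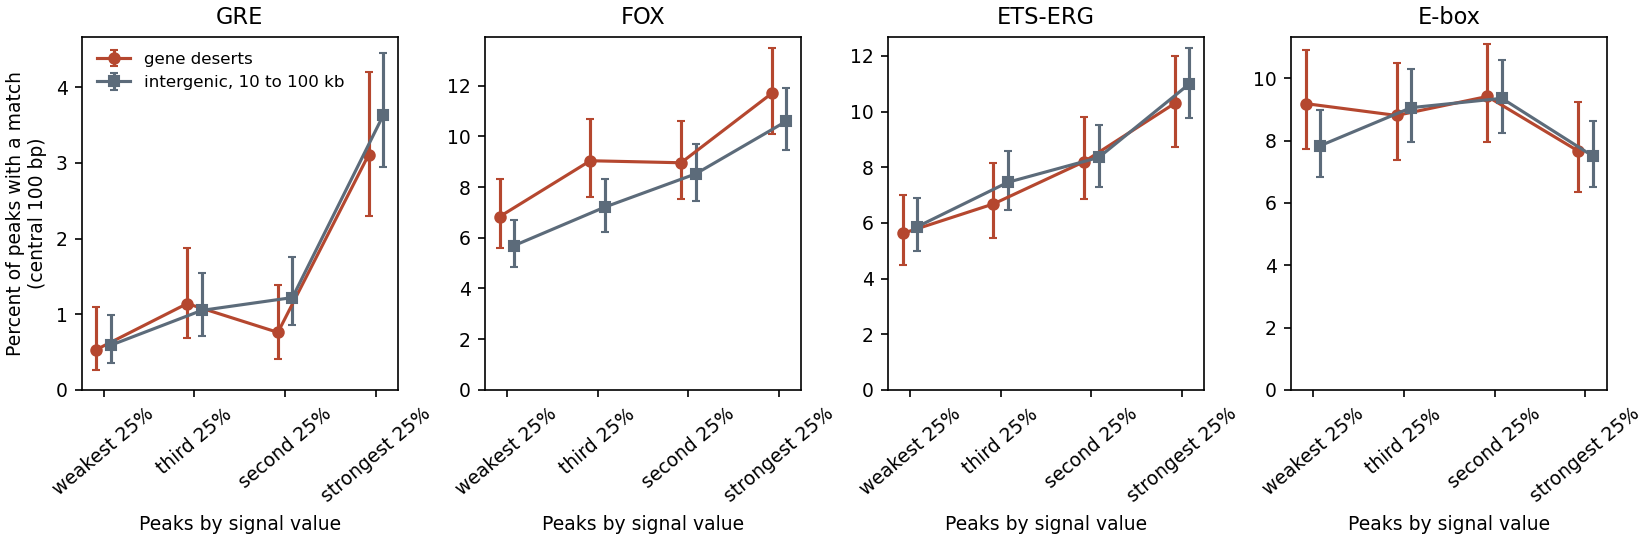
Percent of peaks with a match in the central 100 bp (vertical axes) in groups of 25% by signal value, weakest to strongest (horizontal axes), for desert peaks (circles) and intergenic peaks (squares), with 95% Wilson intervals. The GRE reaches 3.11% in the strongest desert group and stays at or below 1.14% in the others, while the E-box is between 7.67 and 9.42% in every desert group.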

How the data were processed

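Peak lists were read as the authors deposited them on mm10, with 300000 peaks for each library. The authors made an optimal set of 43988 and a conservative set of 42473 from both libraries. Both were thresholded by reproducibility, per the file headers and notes. Whether the 2 libraries themselves were compared in each set was not checked. Their signal value per peak is the authors' own, with no scaling stated. The caller, the aligner and read depth are not given in the sources used here, so no interval covers depth.

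Distances and gene bodies came from GENCODE M21 (basic, protein-coding), and sequence from GRCm38.p6 as RefSeq gives it, with no N counted in densities. Each library alone means its 43988 strongest peaks by its own signal. Shares were compared with two-sided Fisher's exact tests and centres with flanks by exact sign tests (scipy 1.17.1), with Benjamini-Hochberg adjustment; a call needed an adjusted p under 0.05 and, for centres, a ratio of 1.5. Tests were checked on simulated data. Dense stretches are 100 kb windows that start at a desert summit, ranked by count and taken without overlap.

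Named genes flank the 10 densest windows, the 10 strongest peaks, the 5 gaps with most desert peaks and the 3 farthest peaks; others are said to be picked by value. Sequences were to come from the strongest peak of the 6 densest windows and the strongest desert peaks off chromosome 18, 10 in all. Of these 7 are shown, picked to give each called sequence found in them once and 1 peak with none; the Rad51b (TEAD), Tnfaip3 (ETS-ERG) and Serp2 (none) peaks are left out. The members, lists and tests were chosen with earlier results of these data known. Distance limits, annotation, windows, the compared class, the stronger 50% of peaks and each library alone were tried as alternatives.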

Additional observations from a re-analysis of the deposited data

How the results depend on the processing

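Peaks carry no depth here, and the 2 libraries limit what their spread can show. No paired analysis was possible because there is 1 group. The desert share, 12.2%, was 12 to 12.3% in each library alone and 12.6% in the stronger 50% of peaks. It was 11.1% with all transcripts and 11.7% where RefSeq genes were also required to be far, an alternative chosen after seeing the data. The limit itself set it, with 19.8% over 50 kb and 5.80% over 200 kb. The ratio of desert to intergenic density was 0.373 to 0.382 in each library alone, 0.366 in the stronger 50% and 0.366 with all transcripts. It was 0.474 over 50 kb and 0.274 over 200 kb, where the intergenic class also ends at the moved limit. Sequences called at centres numbered 20, and 18 to 19 in each library alone, 15 in the conservative set and 16 in the stronger 50%. They numbered 20 over 50 kb, 19 in the central 200 bp and 13 over 200 kb, where fewer peaks are tested.

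Shares that differed from intergenic centres numbered 1, and 0 in the stronger 50%, 0 over 50 kb, 0 against peaks inside genes, 0 to 1 in each library alone, 7 over 200 kb and 6 in the central 200 bp. Over 200 kb, FOX was in 10.2% of desert centres and 8.04% of intergenic centres at 10 to 200 kb (adjusted p = 0.00638, Fisher's exact test). In the central 200 bp, with the limit at 100 kb, FOX was in 15.5 and 12.7%. The cause was not tested. Features called numbered 5, and 2 against peaks inside genes, where the CpG difference was 0.332 and that at long noncoding RNA starts 1.97 points, both opposite in sign to those against intergenic peaks. Of the 10 densest stretches, 6 were kept over 50 kb, 3 over 200 kb, 6 with 50 kb windows, 7 to 8 in each library alone and 7 with overlapping peaks merged, the last chosen after seeing the data. Of 174 alternatives for single sequences 141 left the call as it was and 33 lost it, and CTCF gave no ratio where no flank held it, in library 1 alone and over 200 kb. Of 79 for single features and sequence shares, 61 left the call as it was, 10 lost it, 6 gained it and the 2 above changed sign. Of these 2, only the difference at long noncoding RNA starts passed in the other direction. The CpG difference did not pass against peaks inside genes (adjusted p = 0.784, Fisher's exact test).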

Other observations

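The full list of library 1 had a summit within 100 bp of 4966 desert summits (94.3%), and that of library 2 of 4885 (92.7%). Both had one at 4642 (88.1%), and 59 had one in neither. A few neuronal genes stood apart from their list: Gria2 and Grin2a each had 10 desert peaks beside them, at 14.4 and 15.7 per Mb. Cav2, an alveolar type 1 gene that encodes a caveolin, had 5 desert peaks in 0.0160 Mb, and Sema3e and Vegfa had 0. Among glucocorticoid-responsive genes, Glul, encoding glutamine synthetase, had 9 desert peaks, Nr3c1, encoding the glucocorticoid receptor, 6, and Klf9 and Sgk1 3 each. Pdgfra and Tcf21, both genes of lung mesenchyme, had 9 each. These genes were picked after their values were seen.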
